A study of Mus musculus with 48 samples.

Results

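H3K4me3, trimethylation of lysine 4 of histone H3, was compared by ChIP-seq between Zbtb11 knockout and wildtype mouse embryonic stem cells. The comparison holds 4 of the 48 samples of the series, 2 libraries of each genotype, chosen by the genotype and antibody in their labels. The knockout line, Ainv15(iZbtb11-HA Zbtb11KO), lacks Zbtb11 and carries an HA-tagged Zbtb11 copy that doxycycline switches on, and the wildtype cells are the Ainv15(iCre) line. Both were kept for 3 days without doxycycline in medium with LIF and without the 2i kinase inhibitors, so the tagged copy was not induced. Zfp131KO and double knockout cells, each with 2 H3K4me3 libraries against the same wildtype, are given beside Zbtb11KO. Their lines are labelled iZfp131-HA Zfp131KO and iZbtb11-HA iZfp131-V5 Zbtb11KO Zfp131KO, so each carries tagged copies of its own. The labels name 1 line per genotype, so an effect of the deletion and a difference between lines cannot be told apart, and they do not say whether the libraries came from separate cultures, so p-values measure only the spread between libraries.

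Trimethylated H3K4 marks the nucleosomes on both sides of active gene starts. In mammals it is written by the SETD1A and SETD1B complexes and by the MLL complexes, which reach CpG islands through CXXC zinc fingers, and it is removed by demethylases such as the KDM5 family. Its height at a start is known to go with promoter activity, and unusually wide domains are known at genes that define a cell type. In embryonic stem cells many silent developmental genes carry H3K4me3 together with H3K27me3, the mark of Polycomb repression, a state called bivalent. ZBTB11 is a BTB zinc finger protein that binds promoters and is known for its targets among nuclear genes of mitochondrial proteins.

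The authors listed 48733 domains in wildtype and 46608 in Zbtb11KO, each called on the pooled libraries of a genotype. The listed domains held 35118431 reads over 32.5 Mb in wildtype and 28312683 reads over 28.8 Mb in Zbtb11KO. No file gave library totals or values per library, so a lower read number over all domains cannot be told apart from a smaller library, and changes below are given relative to the median promoter. The 2 lists covered the same ground where the signal lay. A Zbtb11KO domain overlapped 64.3% (Wilson 95% interval 63.9 to 64.7%) of wildtype domains, and these held 98.6% of the wildtype reads. In the other direction 74.1% (73.7 to 74.5%) of Zbtb11KO domains, with 99.2% of their reads, overlapped a wildtype domain. Unshared domains were short. Of wildtype domains under 100 bp 26.5% were overlapped, against 99.9% of those of 1000 to 2000 bp and 100% of those of 3000 bp or more. These intervals cover counting error only.

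At promoters, wildtype and Zbtb11KO domains were joined where they overlapped, and each joined stretch within 1 kb of a gene start was described by its width, the base pairs covered by domains, and its height, the listed reads per covered kb. There were 12680 such stretches with at least 50 reads in either genotype, serving 13899 of 21883 protein-coding genes, and 12535 were listed in both genotypes. The median stretch held 1212 reads per kb over 1583 bp in wildtype and 1017 reads per kb over 1494 bp in Zbtb11KO. The median log2 ratio of Zbtb11KO to wildtype was -0.09 for width and -0.30 for height. All later width and height ratios are log2 ratios centred on these medians. Height varied more than width among promoters. Its centred ratio had quartiles of -0.25 and 0.35, and that of width had quartiles of -0.14 and 0.11. A height 1.5-fold or more above the median ratio was found at 1680 stretches (13.4%) and one as far below it at 513 (4.09%). For width, 188 stretches (1.5%) were that much wider and 559 (4.46%) that much narrower. Across promoters, width and height ratios had a Spearman correlation of 0.10 over 12535 stretches from the same 2 lists. As height is reads divided by width, the 2 ratios are not independent. This correlation therefore cannot show whether they are unrelated. These ratios compare pooled lists without replicates and carry no test.

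**Figure D1:**
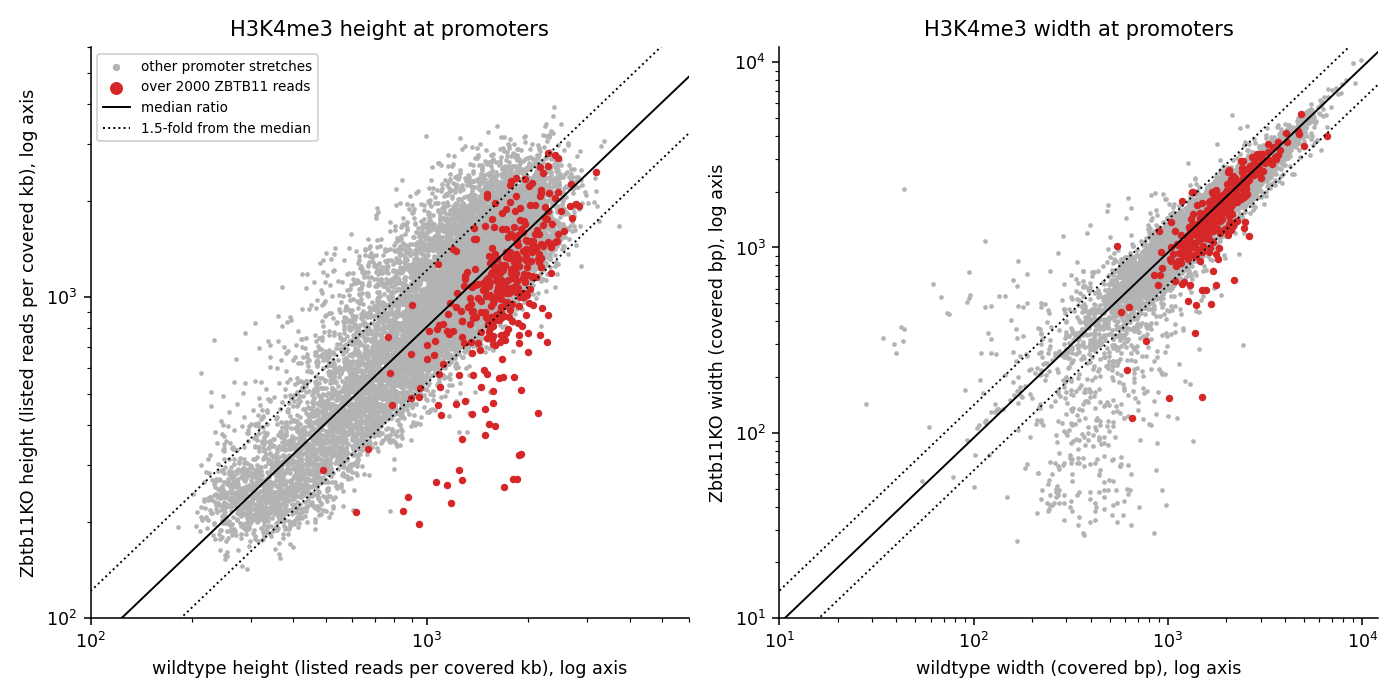
Height (left, listed reads per covered kb) and width (right, covered bp) of each promoter stretch in wildtype (horizontal) and Zbtb11KO (vertical), on log axes, with the median ratio as a solid line and 1.5-fold from it as dotted lines. Stretches with over 2000 ZBTB11 reads, in red, lie high in wildtype, and 90 of the 346 listed in both genotypes fall under the lower dotted line for height.

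Where single edges could be measured, at 5895 stretches with 1 gene start, domains were shorter on both sides in Zbtb11KO. The median reach upstream of the start was 521 bp in wildtype and 472 bp in Zbtb11KO, and the median reach downstream, into the gene, was 1028 bp and 968 bp. Most stretches, 9723, were a single domain in both genotypes. A single wildtype domain was split into several in Zbtb11KO at 1938, and several were listed as 1 at 716. A domain edge moves with depth when a fixed p-value is used, and the part of depth in these shorter reaches was not tested.

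The authors' deposited table is the only replicated measure. Of 62288 regions, 50217 had a Benjamini-Hochberg adjusted p from the authors' DESeq2 test. At an adjusted p under 0.05 the authors' deposited table held 10822 regions that rose (21.6%) and 6503 that fell (12.9%). At gene starts the authors' deposited table held 14218 tested promoters, of which 6174 rose (43.4%) and 3514 fell (24.7%). The promoter median of its log2 fold changes was 0.19, with quartiles of -0.58 and 1.43.

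The fold changes of the authors' deposited table ran wider than the listed reads. Over 24147 regions with at least 50 listed reads in both genotypes, the SD of the log2 value was 1.30 in the authors' deposited table and 0.70 in listed reads, with a Spearman correlation of 0.80. The gap was wider where Zbtb11KO height was high. With regions ranked by Zbtb11KO height into 10 equal groups, in the lowest group the median was -0.64 in the authors' deposited table and -0.94 in uncentred listed reads, and in the highest group it was 2.15 and 0.09. Of 8603 regions that rose in the authors' deposited table, 4128 had fewer listed reads in Zbtb11KO than in wildtype, and 660 lay below the median ratio of listed reads. The order of promoters was shared, with a Spearman correlation of 0.84 between the height ratio and the log2 fold change of the authors' deposited table. Fold changes of the authors' deposited table are therefore given with their rank among the tested promoters, from 0 for the lowest to 100 for the highest, and sizes are read from heights. The cause of the wide values was not tested.

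**Figure D2:**
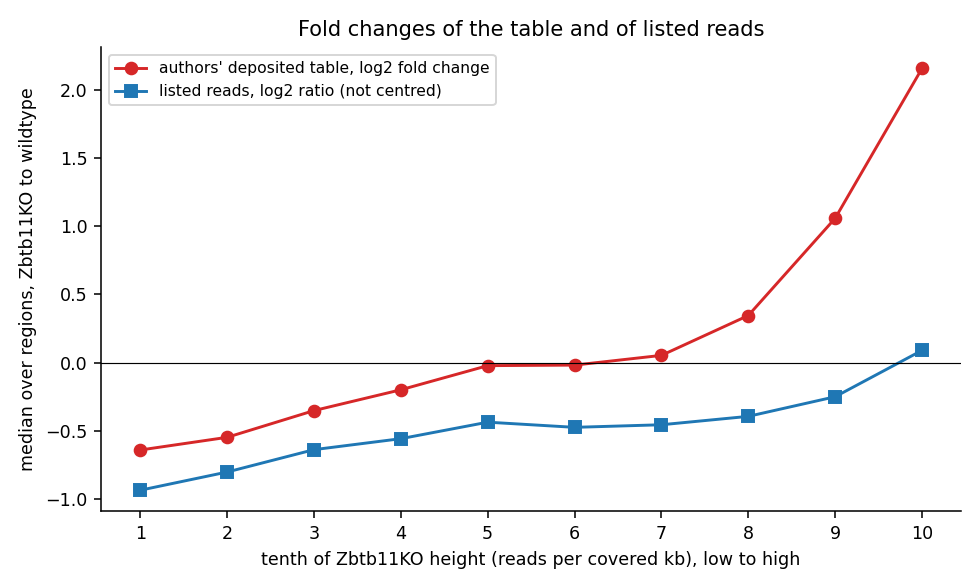
Median log2 fold change of regions in the authors' deposited table (red circles) and median log2 ratio of listed reads, not centred (blue squares), over 10 equal groups of Zbtb11KO height. The medians were -0.64 and -0.94 in the lowest group and 2.15 and 0.09 in the highest, so the lines part to the right.

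Zbtb11 itself kept its promoter mark. Its stretch on chromosome 16 held 2293 reads per kb over 2658 bp in wildtype and 2813 reads per kb over 2521 bp in Zbtb11KO, a centred height ratio of 0.60. In the authors' deposited table it rose by 3.46 (SE 0.07, adjusted p of DESeq2 listed as 0), at rank 98.7. H3K4me3 at a start does not test whether the coding sequence was deleted. The promoter carried 4 ZBTB11 events with 3193 reads, and a new H3K27me3 domain was listed there in Zbtb11KO.

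Lower H3K4me3 in Zbtb11KO was most frequent at the promoters with the most ZBTB11. Binding was taken from the authors' events of the HA-tagged protein within 500 bp of a stretch, measured with doxycycline and with 2i, a culture other than that of H3K4me3. Among the 348 stretches with over 2000 ZBTB11 reads the median centred height ratio was -0.30, and 90 of the 346 listed in both genotypes (26%, against 4.09% of all) were 1.5-fold lower. By the authors' deposited table, 51.1% of the strongly bound stretches fell and 24.1% rose, where 24.3% of all stretches fell and 44.9% rose. The share with a lower height did not grow gradually with binding. It was 1.16% at 600 to 1200 ZBTB11 reads, 6.04% at 1200 to 2000 reads and 5.44% with no event. At the strongly bound stretches, 1.15% were 1.5-fold lower in Zfp131KO, against 5.32% of all, and 23.3% in the double knockout, against 7.94% of all, each against the same wildtype libraries. Chromosome 14 as a whole was low in the double knockout, with a median height ratio of -0.56, and at 0.02 in Zbtb11KO. The double knockout list also held more reads, 59520601 against 35118431 in wildtype, and the part of depth in its values was not tested. The limit of 2000 reads was set after the values were seen. A loss in every cell and a full loss in a fraction of cells cannot be told apart in such bulk data.

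**Figure D3:**
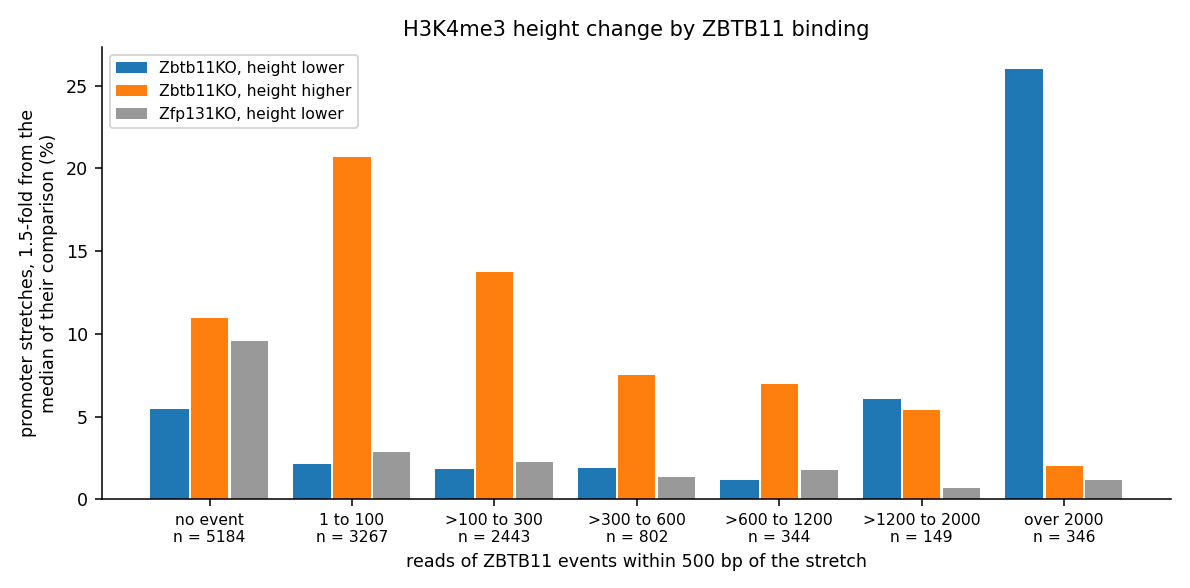
Percent of promoter stretches whose height was 1.5-fold lower (blue) or higher (orange) than the median in Zbtb11KO, and lower in Zfp131KO (grey), by the summed reads of ZBTB11 events within 500 bp. The blue bar reaches 26% over 2000 reads and stays at or below 6.04% in the other classes, and the orange bar falls from 20.7% at 1 to 100 reads to 2.02%.

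Among genes with at least 200 reads in both genotypes, the 8 promoters with the largest height falls included 3 of Nduf or mitochondrial ribosome genes. Of all 13899 listed genes, 43 were Nduf genes and 74 were mitochondrial ribosome genes. Ndufaf1, an assembly factor of respiratory complex I, had 1905 reads per kb in wildtype and 324 in Zbtb11KO. Mrpl3, of the large subunit of the mitochondrial ribosome, went from 1875 to 322 reads per kb, and Ndufc2, a complex I subunit, from 2136 to 436. These were centred height ratios of -2.25, -2.24 and -1.99, and all 3 fell in the authors' deposited table, where their ranks were 1.06, 1.13 and 0.647. The zinc finger gene Zfp560 went from 1149 to 260 reads per kb, and Antkmt, which encodes a methyltransferase of the mitochondrial ADP/ATP carrier, from 1484 to 372. Stx18, a syntaxin of the endoplasmic reticulum, went from 1534 to 402, Dmap1, of the TIP60 complex, from 1905 to 512, and the imprinted gene Mkrn3 from 1274 to 362. All 8 carried 3 to 6 ZBTB11 events with 2300 to 3474 reads, and their Zfp131KO height ratios lay between -0.28 and 0.59.

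The upstream bases of the 4 largest falls are shown, 5′ to 3′ on the gene's strand and ending at the base before the start, as 3 of them hold a short motif that was frequent at strongly bound promoters. They come from RefSeq on GRCm38.p6, the assembly of mm10, at chr2:119662835-119663084 (minus strand), chr9:105053018-105053267 (plus), chr7:97399753-97400002 (plus) and chr9:20385159-20385408 (minus). Capitals mark CCGGAAG or its reverse complement CTTCCGG, the form of the GGAA core that ETS factors bind.
Ndufaf1: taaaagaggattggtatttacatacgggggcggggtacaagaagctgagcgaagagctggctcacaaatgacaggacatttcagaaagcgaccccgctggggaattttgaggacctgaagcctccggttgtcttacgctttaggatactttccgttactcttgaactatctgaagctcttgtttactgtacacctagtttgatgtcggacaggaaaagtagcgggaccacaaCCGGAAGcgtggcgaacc
Mrpl3: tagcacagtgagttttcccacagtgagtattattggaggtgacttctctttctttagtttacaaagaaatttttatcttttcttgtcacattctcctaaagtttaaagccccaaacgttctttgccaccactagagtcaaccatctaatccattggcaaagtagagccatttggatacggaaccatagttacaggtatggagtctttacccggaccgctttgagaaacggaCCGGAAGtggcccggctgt
Ndufc2: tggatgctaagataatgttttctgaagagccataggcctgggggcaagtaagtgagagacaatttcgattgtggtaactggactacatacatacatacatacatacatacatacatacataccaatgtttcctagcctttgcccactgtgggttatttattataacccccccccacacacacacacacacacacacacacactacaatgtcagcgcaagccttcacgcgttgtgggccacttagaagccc
Zfp560: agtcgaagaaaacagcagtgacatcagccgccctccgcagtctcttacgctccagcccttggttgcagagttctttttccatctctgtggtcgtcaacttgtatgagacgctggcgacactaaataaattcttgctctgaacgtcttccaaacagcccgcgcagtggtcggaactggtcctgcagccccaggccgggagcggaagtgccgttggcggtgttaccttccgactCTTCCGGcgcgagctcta

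Ndufaf1, Mrpl3 and Zfp560 each held 1 match, with 11, 12 and 11 bases between it and the start, and Ndufc2 held none in this window. Over the 300-base promoters of RefSeq, from 250 bases before to 50 after a start, CCGGAAG on either strand was found at 49.0% of 298 strongly bound stretches with a known start and at 16.7% of all 10026. It was in 44.3% of the 79 that were also lower in height, and in 20.0% of all 410 with a lower height. Among the stretches with a higher height it was in 8.56%. The GC box GGGCGG, on either strand, showed the opposite order, with 52.7% of strongly bound stretches, 68.9% of all and 74.4% of those with a higher height. Of the other 5 motifs counted on both strands, CCAAT was in 30.9% of strongly bound stretches and 37.3% of all, and the TATA box TATAAA in 5.70% and 6.29%. The NRF1 core GCATGCG was in 7.38% and 6.24%, the YY1 motif AGATGGC in 5.70% and 6.65%, and the E-box CACGTG in 9.40% and 10.4%. A match is a string of letters and not a binding site.

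Of genes whose mean signal reached the promoter median, several of the lowest in the authors' deposited table were strongly bound too. The shared promoter of Wdr83 and Wdr83os, of which the second encodes a membrane protein of the endoplasmic reticulum translocon, went from 3963 listed reads over 2195 bp to 182 over 669 bp. In the authors' deposited table Wdr83os fell by 3.82 (SE 0.23, adjusted p of DESeq2 = 1.14e-58), at rank 0.475. Alg3, a mannosyltransferase of N-glycosylation that shares its start with Eef1akmt4, went from 1569 to 469.6 reads per kb. Psmf1, an inhibitor of the proteasome, went from 2191 to 928 reads per kb, and the mannosidase gene Man2c1 from 2068 to 948. Arl6ip4, in the same group with 2181 and 812 reads per kb, had no ZBTB11 event within 500 bp.

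Of the 348 strongly bound stretches 57 had an H3K27me3 domain in Zbtb11KO and none in wildtype, and 38 of these 57 had a 1.5-fold lower H3K4me3 height. Their median centred height ratio was -0.92 and their width ratio -0.48. Lower height was also found without that domain, at 51 of the 90 lower stretches. A tested H3K27me3 region lay at only 71 of the 348, of which 71.8% rose in the authors' deposited table, against 4.63% of all stretches with one. Since 9 of the 348 had a wildtype H3K27me3 domain, many of the 71 could be tested only through Zbtb11KO, so this share is a description. H3K27ac, the acetylation of active promoters, fell in the authors' deposited table at 28.3% of the strongly bound stretches, against 9.83% of all, and at 59.8% of those with a lower H3K4me3 height. At Mrpl3 no H3K27me3 domain was listed in either genotype, and the authors' deposited table gave a fall of H3K27ac by 1.98 (adjusted p of DESeq2 = 2.14e-06).

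The widths of strongly bound domains were lower too, by less than their heights. At these stretches the median centred width ratio was -0.09, and 9.83% were 1.5-fold narrower, against 4.46% of all. The narrower share was nearly as high with no ZBTB11 event, at 8.51%, and was 0.62% to 1.62% in the classes of binding between. At strongly bound stretches the median change was -86 bp upstream and -125 bp downstream, against -26 and -33 bp with no event. The named genes with the largest narrowing, which needed at least 200 reads in both genotypes, were mostly strongly bound. Narrowing in general was not, since 34 of all 559 narrower stretches had over 2000 ZBTB11 reads and 441 had no event. The promoter shared by Pex3, which inserts peroxisomal membrane proteins, and Adat2 covered 1767 bp in wildtype and 628 bp in Zbtb11KO. B4galt7, a galactosyltransferase of proteoglycan synthesis, covered 1491 and 592 bp, the zinc finger gene Zfp11 covered 1261 and 515 bp, and Wdr36, a ribosome assembly gene, 1713 and 749 bp. Stx16, a syntaxin of the trans-Golgi, covered 2625 and 1149 bp. These 5 each had over 2000 ZBTB11 reads. The others did not, and one of them kept its height. Gclc, which makes glutathione, covered 1966 and 882 bp with 1302 and 1384 reads per kb, and Btn1a1 and B4galnt2 had 0 and 245 ZBTB11 reads.

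Promoter domains were seldom lost or gained outright. There were 108 stretches listed in wildtype alone and 37 in Zbtb11KO alone, of 12680. The strongest loss was at Acsf3, a mitochondrial acyl-CoA synthetase, with 1142 reads over 1173 bp in wildtype and no domain in Zbtb11KO. It fell by 5.00 in the authors' deposited table (SE 0.60, adjusted p of DESeq2 = 5.42e-16), at rank 0.239, carried 2071 ZBTB11 reads and held 3 new H3K27me3 domains in Zbtb11KO. Tfdp2, Snap25 and Trim15 lost weaker domains of 233 to 349 reads and had no ZBTB11 event. The remaining named losses, Uty and Ddx3y, lie on the Y chromosome, where wildtype listed 25 domains with 1688 reads and Zbtb11KO 9 with 190, against 23 with 1129 in Zfp131KO and 18 with 961 in the double knockout. The list lacked both of these Y domains in Zbtb11KO, and whether all cells of that line keep the chromosome was not tested. Gains were weaker still. They lay at the histone genes H3c6 and H2bc9 with H3c7, at Stox2, Tmem92, Mmrn2 and Xlr3c, with 183 to 305 reads. H2bc9 went against the list, since it fell by 1.13 in the authors' deposited table (adjusted p of DESeq2 = 0.00107).

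A higher H3K4me3 height was more frequent at promoters with many CpG and at promoters with H3K27me3 in wildtype. The 4359 stretches with a wildtype H3K27me3 domain, listed in both genotypes, had a median centred height ratio of 0.14, and 22.6% of them were 1.5-fold higher, against 8.48% of the 8176 without such a domain. Stretches with the domain were also weaker in wildtype, with a median of 795 reads per kb against 1426 without it. The part of this weaker signal in the contrast was not tested. Of stretches with both an H3K27me3 domain and a ZBTB11 event, 28.1% were higher in height, and 64.2% rose by the authors' deposited table. With the H3K27me3 domain and no event these shares were 16.9% and 39.6%. The bound ones also had more CpG, with a median of 24 against 19, and a higher wildtype median, 1001 against 612 reads per kb. The part of these differences was not tested. The height ratio also went with CpG number in the 300-base promoter. Its median was 0.24 with over 30 CpG, 0.03 with 21 to 30 and -0.13 with 11 to 20. By the authors' deposited table, 75.8% of stretches with over 30 CpG rose and 8.09% fell, while 28.8% rose and 35.7% fell with 11 to 20 CpG. With over 30 CpG the median was 0.39 where H3K27me3 was present and 0.17 where it was not, and with up to 20 CpG it was -0.05 and -0.17. In Zfp131KO the medians for over 30 and for 11 to 20 CpG were 0.05 and -0.03, and in the double knockout 0.06 and -0.04.

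**Figure D4:**
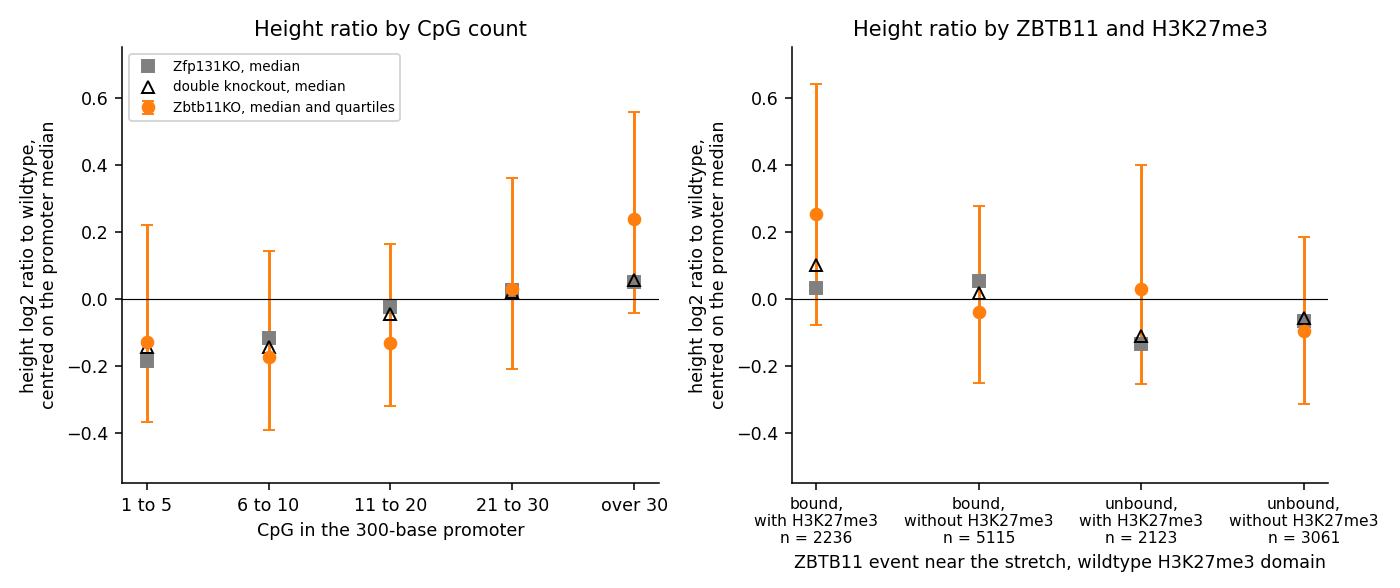
Centred height log2 ratio to wildtype by CpG number of the 300-base promoter (left) and by ZBTB11 event and wildtype H3K27me3 domain (right), as median and quartiles in Zbtb11KO (orange) and medians in Zfp131KO (grey squares) and the double knockout (triangles). The orange medians climb from -0.13 with 11 to 20 CpG to 0.24 with over 30, and on the right the highest is 0.25, at bound stretches with H3K27me3.

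The CpG order was found among weak and strong domains. With stretches ranked by wildtype height into 5 equal groups, the median height ratio in each group was higher with over 30 CpG than with up to 20, at 0.31 against -0.12 in the lowest group and 0.09 against -0.21 in the highest. Stretches with a SETD1A event in wildtype, the methyltransferase of one writer complex, had median height ratios of 0.04 to 0.08 in every class of SETD1A reads, and those with no event had -0.14. Those with no event also had fewer CpG, with a median of 14 against 23 to 29. Their median wildtype height was 629 reads per kb, against 1079 to 2113. The part of CpG number and wildtype height in this contrast was not tested. SETD1A in Zbtb11KO was not used here.

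The largest height rises among genes with at least 200 reads in both genotypes were at promoters with a wildtype H3K27me3 domain. Nup62cl, an X-linked relative of a nucleoporin gene, had 990.3 reads per kb in wildtype and 3189 in Zbtb11KO. Hoxd8 went from 371 to 1073 reads per kb, and Tlx1, a homeobox gene of spleen and neurons, from 425 to 1183. The ubiquitin ligase gene Rnf217 went from 845 to 2322 and Pou4f3, of inner ear hair cells, from 532 to 1427. The signalling genes Rgs7 and Gnao1 went from 809 to 2167 and from 710.3 to 1901. These 7 rose in the authors' deposited table at rank 99.1 or above. Their centred width ratios ran from -0.10 at Nup62cl to 0.43 at Pou4f3, where the 95th percentile of all promoters was 0.33. Of the 30 largest rises under that minimum, 30 had H3K27me3 in wildtype and none had over 2000 ZBTB11 reads. Of the 30 largest falls, 21 had over 2000 ZBTB11 reads and 18 had a new H3K27me3 domain. Of all 12680 stretches, 4401 had H3K27me3 in wildtype, 348 had over 2000 ZBTB11 reads and 500 had a new H3K27me3 domain. Strongly bound stretches were so few that none among 30 rises lies near their general share.

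The upstream bases of the 3 largest rises with a RefSeq start are shown for contrast with the falls, on the same build, at chrX:140062569-140062818 (minus strand), chr2:74704365-74704614 (plus) and chr19:45150465-45150714 (plus). Here capitals mark CpG.
Nup62cl: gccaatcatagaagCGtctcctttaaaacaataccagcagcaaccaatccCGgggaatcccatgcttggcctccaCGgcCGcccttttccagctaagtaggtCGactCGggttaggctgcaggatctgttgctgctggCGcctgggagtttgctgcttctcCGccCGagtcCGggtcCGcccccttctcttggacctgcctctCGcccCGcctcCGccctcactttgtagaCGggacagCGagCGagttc
Hoxd8: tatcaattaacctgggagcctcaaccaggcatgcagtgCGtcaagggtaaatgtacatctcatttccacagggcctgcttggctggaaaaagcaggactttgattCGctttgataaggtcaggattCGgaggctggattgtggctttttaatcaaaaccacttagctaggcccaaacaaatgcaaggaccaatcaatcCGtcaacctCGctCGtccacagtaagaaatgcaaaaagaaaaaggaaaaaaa
Tlx1: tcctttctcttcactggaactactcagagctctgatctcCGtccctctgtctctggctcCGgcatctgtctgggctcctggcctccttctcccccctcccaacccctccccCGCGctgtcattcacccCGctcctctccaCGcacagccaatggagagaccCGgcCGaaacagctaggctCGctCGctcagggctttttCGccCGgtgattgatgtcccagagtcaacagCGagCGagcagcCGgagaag

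Nup62cl, Hoxd8 and Tlx1 held 17, 6 and 15 CpG in the 250 bases, and the 4 falls held 4 to 19. Of the 30 rises 23 had a CpG count and 6 of these had over 30 CpG, against 2288 of all 10130 stretches with a count. Median CpG number in the 300-base promoter was 21 over the rises among those 30 with a known start and 15.5 over the falls. Over all promoter stretches it was 21 as well, so the largest rises lay at the general median and the falls below it.

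Other genes ranked first by the authors' deposited table where the mean signal reached the promoter median. Sirt7, a nuclear deacetylase, went from 1908 to 2867 reads per kb, Mxi1, an antagonist of MYC, from 2249 to 3420.2, and the RNA-binding gene Qk from 1670.3 to 2514. In the authors' deposited table they rose by 4.46, 4.38 and 4.32, at ranks of 99.92 or above, while their centred height ratios were 0.89 to 0.91. Nhsl2, Nedd1 and Prickle1 stood in the same group, with 1089 and 2613, 1657 and 3153, and 1270.0 and 2899.6 reads per kb in wildtype and Zbtb11KO. The last of these encodes a planar cell polarity protein.

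Widening was rarer than narrowing. Avpi1 covered 2146 bp in 4 wildtype domains and 5186 bp in 1 Zbtb11KO domain, while its height went from 1343 to 665 reads per kb. Its listed reads went from 2882 to 3448, so this lower height was not a loss of reads but more reads over more bp. Fndc10 covered 1783 and 3600.0 bp and had a lower height as well, with 1591 and 765 reads per kb. Neither passed the test of the authors' deposited table (adjusted p of DESeq2 = 0.859 and 0.884). The germ-layer regulators Foxa2 and Foxb2 covered 937 and 605 bp in wildtype and 1950.0 and 1442 bp in Zbtb11KO, at centred height ratios of 0.02 and 0.19. At Ahnak2 and D1Pas1 both measures were higher, with centred height ratios of 0.67 and 0.68. These 6 were listed as 2 to 5 domains in wildtype and as 1 in Zbtb11KO. Gm28455, with 493 and 976 bp, and Hyal1, with 808 and 1535 bp, were 1 domain in both genotypes.

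Most of the widest domains were among the widest in both genotypes. Of 624 stretches in the widest 5% of wildtype, over 3268 bp, 502 (80.4%, Wilson 95% interval 77.2 to 83.4%) were in the widest 5% of Zbtb11KO, over 3060 bp, and 125 others entered. The wildtype members were 1.5-fold narrower at 9 stretches and as much wider at none. Events of ZBTB11 lay at 82.9% of them and events of SETD1A at 97.1%, against 57.4% and 71.0% of narrower stretches. Events were counted over the whole stretch and 500 bp beyond it, so wider stretches were searched over more bp. The part of this in the shares was not tested. The widest stretch, at Tnrc18, covered 9819 and 10206 bp. Trim71, a stem cell regulator, covered 9172 bp in 1 wildtype domain and 7723 bp in 8 Zbtb11KO domains, and Setd1b, which encodes an H3K4 methyltransferase, 8925 and 9916 bp. Sox2, a pluripotency factor, covered 7744 and 6845 bp, with 1362 and 812 reads per kb. Of the members that left, Sap30, Rhoa, Fn1, Ect2 and Tcf4 were split into 3 to 5 Zbtb11KO domains, while Abt1, of 3860.0 and 2238 bp, and Skida1, of 3714 and 2294 bp, were 1 domain in Zbtb11KO. Of the members that entered, Btg2, Gata6, Pdgfra and Foxo4 were single Zbtb11KO domains.

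The labelled cell type was checked against marker lists. A promoter stretch was listed in both genotypes at 27 of 28 pluripotency genes, 8 of 12 fibroblast genes and 1 of 11 genes of two-cell-like cells. The wildtype median was 525 reads per kb for the fibroblast genes and 1226 for the pluripotency genes. H3K4me3 at silent bivalent promoters does not show expression.

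More promoters rose than fell overall (43.4% against 24.7%), and the lists of later cell fates are read against that. Most of their members had a wildtype H3K27me3 domain, with 21 of 23 in the mesoderm and endoderm list, 22 of 22 in the neural and 12 of 12 in the trophectoderm list, and 52.1% of all stretches with one rose in the authors' deposited table. In the formative and primed list, genes of the state after naive pluripotency, 11 of 14 rose and 1 fell in the authors' deposited table, and the median centred height ratio was 0.29. Etv4 went from 1250 to 1764 reads per kb and Pou3f1 from 678 to 869.6. Of primitive endoderm genes 11 of 13 rose and 0 fell, with centred medians of 0.19 for height and 0.29 for width. Gata6, the regulator of that lineage, covered 2451 and 3573 bp with 466 and 731 reads per kb. Of mesoderm and endoderm genes 12 of 23 rose and 3 fell (median height 0.33), and of neural genes 14 of 22 rose and 2 fell (0.30). Eomes went from 1115 to 1613 reads per kb and Nkx2-2 from 228 to 457. Tbx6 went the other way, from 387 reads to 10, and so did the neuronal tubulin gene Tubb3, from 640.5 to 298 reads per kb. Of 36 Hox genes 20 rose and 1 fell, with medians of 0.37 for height and 0.26 for width, and 36 of 36 had a wildtype H3K27me3 domain. The trophectoderm list had 4 rises and 1 fall in 12, with a median height of 0.13. Double knockout height medians were 0.37 for the trophectoderm list, 0.28 for Hox and 0.25 for neural genes. They were 0.22 for mesoderm and endoderm and 0.12 for formative and primed genes. Zfp131KO medians of these lists, in the same order, were 0.02, 0.05, 0.09, 0.03 and -0.01. Differences between the knockouts in these lists were not tested. By height, 12 of 36 Hox genes were 1.5-fold higher and 8 were as much wider, where 12.8% of all listed genes were higher, 4.11% lower, 1.42% wider and 4.22% narrower.

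Pluripotency genes were split. By the authors' deposited table, 11 of 28 tested genes rose and 11 fell, against 43.4% and 24.7% of all promoters, at a median centred height of -0.20. Klf5 and Sall4 rose, with 1581 and 1899 and with 1707 and 1934 reads per kb in wildtype and Zbtb11KO. The RNA-binding genes Lin28a and Lin28b fell, from 1391 to 507 and from 605 to 217 reads per kb. Their Zfp131KO height ratios were -0.01 and -1.04. Height was 1.5-fold lower at 3 of 27 members in Zbtb11KO, where 4.11% of all listed genes were, and at 8 in Zfp131KO, where 5.32% of all stretches were. Nanog, with 1147 and 711 reads per kb, had a centred height ratio of -0.38 in Zbtb11KO and -1.42 in Zfp131KO. The difference between knockouts was not tested.

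Genes of mitochondrial and cytosolic protein synthesis lay below the median. By the authors' deposited table, 43 of 74 mitochondrial ribosome genes fell and 12 rose, at a median centred height of -0.27, against a background of 24.7% of promoters that fell. The 14 members with over 2000 ZBTB11 reads had a median of -0.59 and a range of -2.24 to -0.15, and 7 of them were 1.5-fold lower in height. The other 60 had a median of -0.25, and 2 were 1.5-fold lower. Mrpl1, of the large subunit, went from 1813 to 564 reads per kb, Mrps31, of the small subunit, from 1679 to 565, and Mrpl13 from 1865 to 832. Mrpl48 and Mrps7 rose in the authors' deposited table, with 2280 and 3056 and with 2861 and 2311 reads per kb. The respiratory complex I list was all genes with an Nduf symbol, so it also held assembly factors such as Ndufaf1 and Ndufaf4. In this list 24 of 43 genes fell and 7 rose, at a median height of -0.25. Its 8 strongly bound members had a median of -0.54, and 3 were 1.5-fold lower, against 0 of the other 35. Of 75 cytosolic ribosome genes 35 fell and 14 rose, at -0.21, with 5 strongly bound members at -0.27. Housekeeping genes lay as low without strong binding, at -0.28, with 6 of 10 falling. Gapdh went from 2165 to 1136 reads per kb with 124.5 ZBTB11 reads.

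**Figure D5:**
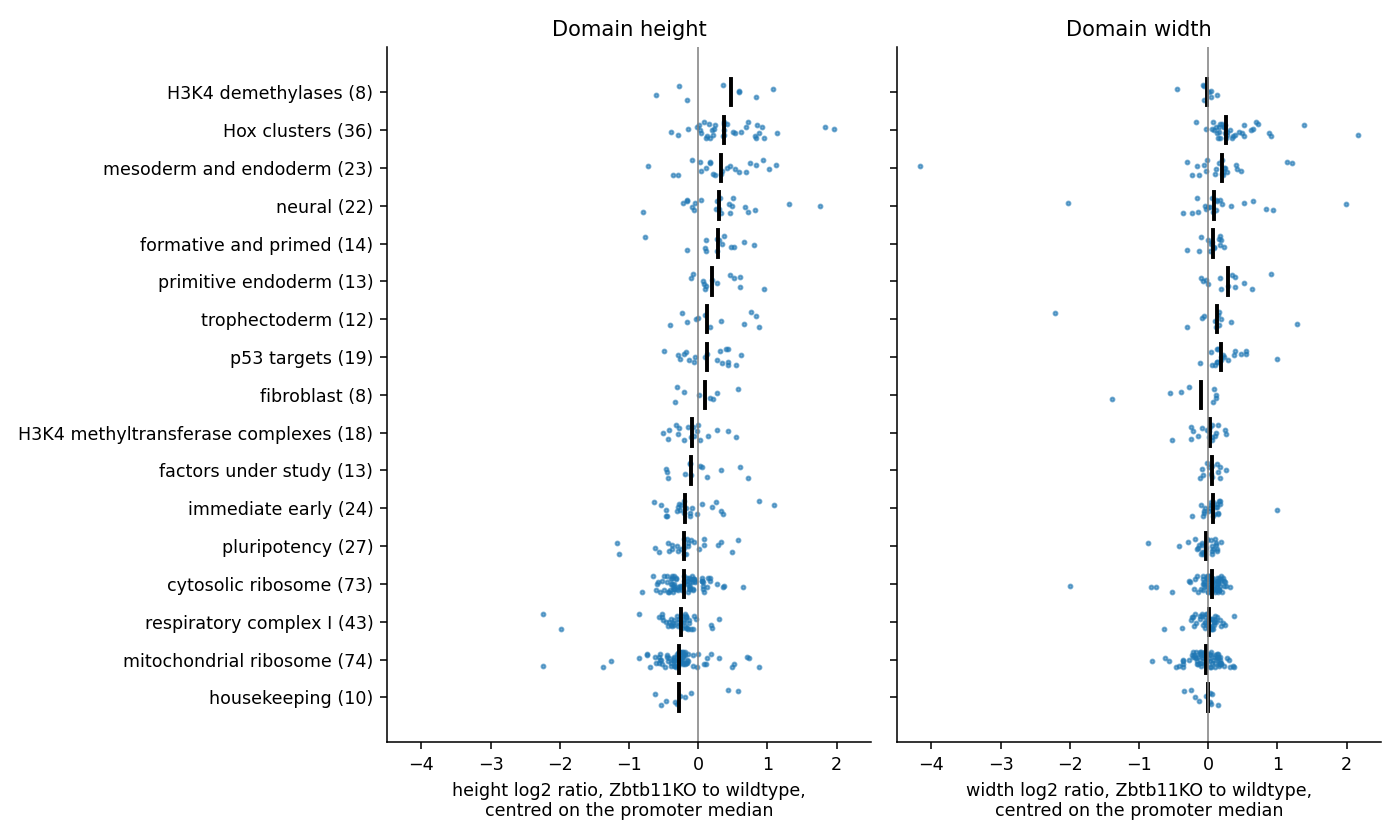
Centred log2 ratios of height (left) and width (right) of the members of each gene list, as points, with the median as a bar and the number of members listed in both genotypes in brackets (the two-cell-like list, with 1 member, is left out). Median heights run from -0.28 (housekeeping) to 0.47 (H3K4 demethylases), and the Hox and primitive endoderm lists are shifted in width as well.

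The enzymes of the mark were examined for their own promoters, and these counts too stand beside 43.4% of promoters that rose and 24.7% that fell. Of 8 H3K4 demethylase genes 5 rose and 1 fell in the authors' deposited table, at a median height of 0.47. Kdm5b rose, from 1742 to 2991 reads per kb, and so did Kdm2a, from 1559 to 2258. Kdm5c, on the X chromosome, fell, from 1562 to 826. Among 18 methyltransferase complex genes 6 rose and 6 fell, at -0.09. Kmt2d rose, from 1518 to 1790 reads per kb, and Rbbp5, a core subunit with 4208 ZBTB11 reads, fell, from 1825 to 1087. Of p53 targets 13 of 19 rose and 0 fell, with median ratios of 0.13 for height and 0.18 for width. Mdm2, the ligase of p53, covered 3233 and 4435 bp, the antiproliferative gene Btg2 2346 and 4386 bp, and the cyclin gene Ccng1 2605 and 3594 bp. Immediate early genes had 9 rises and 9 falls in 24, at a median height of -0.19. Fosl2 and Ier5 rose, from 1491 to 2230 and from 1517 to 2632 reads per kb, while Fos fell, from 1036 to 611.

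Away from promoters, 13710 stretches held at least 50 reads in either genotype, and they were small, with a median of 146 wildtype reads. Of them 16.0% were listed in wildtype alone and 3.82% in Zbtb11KO alone, against 0.852% and 0.292% at promoters. The 10987 listed in both had a median height ratio of -0.07 and a width ratio of -0.17 on the scale centred on promoters. A ZBTB11 event lay within 500 bp of 19.0% of them. Small domains are the first to pass or miss a fixed p-value as depth changes, and that part was not tested.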

How the data were processed

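Per the file headers, the authors pooled the libraries of a genotype and ran DomainFinder (SEED package) at a domain p-value under 0.01 with a blacklist of regions left out. Of the deposited columns, the read count of each domain and its p-value were used. For each region the authors' deposited DESeq2 tables give the mean signal, the log2 fold change and its SE, the Wald test score, and p-values raw and adjusted by Benjamini-Hochberg. ZBTB11 and SETD1A events carry the authors' summed read signal per event, not whole counts. Bowtie 1.0.1, bedtools, DESeq2 1.28.1 and mm10 are named in the submitters' processing notes, and the scaling of the table is not given in the sources used here. The planned count model needed counts per library, which the files used here do not hold.

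Domains were joined where they overlapped and assigned to RefSeq gene starts within 1 kb (GRCm38.p6), or to a gene end for 2799 genes without one, and the stretch with most reads was kept (Python 3.11.15, pandas 2.3.3, numpy 2.4.6, scipy 1.17.1). Stretches needed 50 reads in either genotype, a change was 1.5-fold from the median ratio, and a table call had an adjusted p under 0.05. Per gene, the table region of highest mean signal was used. On simulated lists the steps recovered 200 of 200 stretches changed 2-fold and called 30 unchanged ones by height among 27844 stretches. The centred test recovered 200 of 200 changed regions and called 14 unchanged ones among 50217 regions. Apart from planted width changes, the simulated lists kept the wildtype domain edges and held counting noise only. Changes were planted in isolated domains with many reads. Split domains and spread between libraries were not simulated, so these rates do not carry over to the real lists. Members, gene lists and classes were chosen with earlier results of these data known. Named genes were up to 8 rises and 8 falls by table value (mean signal at or above the promoter median), by height and by width (at least 200 reads in both), the 8 widest, up to 6 listed in 1 genotype, and up to 4 of each list by adjusted p and by width; others were named after their values were seen. One gene that this rule names is not reported here.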

Additional observations from a re-analysis of the deposited data

How the results depend on the processing

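Over the first set of alternative settings, 29 values stayed within the tolerance set for them and 10 did not. Regions that fell numbered 4116 at an adjusted p under 0.01 in place of 6503. The overlapped shares of wildtype and Zbtb11KO domains were 53.4% and 68.3% for an overlap of at least 50%, 72.6% and 88.0% for domains with p under 1e-5, and 86.4% and 94.9% for domains of at least 500 bp. Of the widest 2%, 75.3% stayed. Bound stretches differed from unbound ones by 0.02 in median width and 0.09 in median height, and with the events of most reads alone by -0.00358 and -0.0787, so their direction turned. With calls centred on the promoter median, 54.3% of called promoters were higher, against 63.7%.

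In alternatives added after seeing the data, the strongly bound share with a lower height was 22.6% over 1500 ZBTB11 reads, 31.8% over 3000 reads and 11.6% at 2-fold (0.455% of all). With over 30 CpG the higher share was 5.03% at 2-fold (3.15% of all) and 25.5% by reads over the whole stretch (16.4% of all).

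No paired analysis was possible because the files hold no value per region and library, so a replicate block, the omission of a replicate and the spread between libraries could not be had, and the pooled reads of 2 libraries cannot show whether 1 of them carries a change.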
